A study of Mus musculus with 5 samples.

Results

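*Myc*, its partners *Max* and *Mxd4*, the D cyclins *Ccnd1*, *Ccnd2* and *Ccnd3*, the inhibitors of cyclin-dependent kinases (CDK) *Cdkn1b*, *Cdkn1c* and *Cdkn2c*, and the retinoblastoma gene *Rb1* were examined in metabolically labeled cardiac fibroblasts (CF). These 10 genes were chosen by name from the 20365 gene names in the tables, and all 10 were present. CF were isolated from hearts of adult healthy male C57Bl/6J wildtype mice by perfusion with collagenase and were grown until confluency. In the labeled group, 3 libraries came from CF incubated for 12 h with 0.1 mM of the uridine analog 4-thiouridine (S4U), and in the unlabeled group 2 libraries came from CF incubated in parallel without S4U. RNA of the samples was alkylated with iodoacetamide, after which S4U reads as C in place of T, and 3′ end libraries were sequenced. The T>C conversion rate, the share of covered T positions read as C, therefore rises with the part of a transcript pool made during labeling. The study states 3 CF preparations for this experiment, without saying which preparation gave the unlabeled libraries, so that p-values measure the spread between these libraries.

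D cyclins carry growth factor signals into the cell cycle. They bind the kinases CDK4 and CDK6, which phosphorylate the retinoblastoma protein and so release E2F factors for the genes of DNA synthesis. Myc, as a dimer with Max, activates genes of growth and ribosome production, and Mxd4 competes with it for Max as a repressor. The inhibitors p27 (*Cdkn1b*) and p57 (*Cdkn1c*) act on cyclin-CDK complexes, and p18 (*Cdkn2c*) binds CDK4 and CDK6 directly. Transcripts of *Myc* and the D cyclins are known for rapid decay, which AU-rich elements and microRNAs in their 3′ UTR promote.

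The depth of the libraries set what could be seen. With 1 interval taken for each gene, the libraries held from 506045 reads, in labeled replicate 3, to 1842863 reads. Over all intervals, the T>C rate was 0.0355 ± 0.000264 (SD, n = 3) in the labeled libraries and 0.00111 and 0.000652 in unlabeled replicates 1 and 2. Summed fibroblast markers lay at 30361, 31387 and 33278 CPM of counted reads (reads scaled to the same total in each library) in the labeled and at 23265 and 26844 in the unlabeled libraries. Smooth muscle and pericyte markers lay at 20.3, 13.4 and 27.7 in the labeled and at 11.9 and 8.03 in the unlabeled libraries. For both sums the labeled libraries were all above the unlabeled ones. Most of the fibroblast sum came from *Col1a1* and *Col1a2*, so that the sum does not stand for the whole list. *Pdgfra* was lower in the labeled libraries, at 525, 524 and 516 against 722 and 841, and *Dcn* and *Lum* had log2 fold changes of 0.08 and 0.07. *Tcf21* and *Postn* had 0.28 and 0.34. Of the 7 fibroblast markers 6 had a log2 fold change above 0 and 1, *Pdgfra*, below, with a median of 0.28. *Cnn1* was the highest gene in the smooth muscle and pericyte sum, at 14.6, 10.9 and 19.8 in the labeled and 5.97 and 6.02 in the unlabeled libraries. The groups overlapped for *Rgs5* and *Kcnj8*, so that this sum does not stand for its whole list either. *Myh11* was at 0 in 4 libraries and at 0.543 in unlabeled replicate 1. Over the 5 libraries the sums were 53.9 to 101 for macrophage, 92.9 to 187 for endothelial and 0.634 to 8.03 for cardiomyocyte markers, of which *Ryr2* was at 0 in all libraries. The endothelial sum was 95.8, 165 and 92.9 in the labeled and 133 and 187 in the unlabeled libraries. Its groups overlapped, and all 5 endothelial markers had a log2 fold change below 0. The libraries numbered 1 in both groups stood apart from the other 3. Both were above the other 3 in level for 30% and below them for 22.7% of 9807 genes, a split by number that was chosen after the values were seen.

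Each of the 10 genes was read on a single 3′ UTR interval, the one with the highest mean level in the labeled libraries among the 18 intervals that carry these names. For *Max* and *Cdkn1c* a second, nearly identical interval had the same level, and the first in coordinates was taken. Coordinates are those of GRCm39. *Myc* was read on chromosome 15 from 61861758 to 61862210 (plus strand, 453 bases), *Max* on chromosome 12 from 76984043 to 76985341 (minus strand), and *Mxd4* on chromosome 5 from 34333924 to 34334335 (minus strand). The D cyclin intervals lay on chromosome 7 from 144483668 to 144486343 for *Ccnd1*, on chromosome 6 from 127102125 to 127107297 for *Ccnd2* (both minus strand) and on chromosome 17 from 47909702 to 47910614 for *Ccnd3* (plus strand). The intervals of the inhibitors lay on chromosome 6 from 134901206 to 134902488 for *Cdkn1b* (plus strand), on chromosome 7 from 143012076 to 143012753 for *Cdkn1c* and on chromosome 4 from 109518073 to 109518445 for *Cdkn2c* (both minus strand). *Rb1* was read on chromosome 14 from 73432942 to 73434650 (minus strand). Each interval lies in the 3′ UTR of a last exon, and that of *Cdkn1b* has 12 bases beyond the annotated exon. The intervals of *Ccnd1*, *Ccnd2*, *Ccnd3*, *Cdkn1b* and *Rb1* run opposite to another annotated gene, and that of *Cdkn1c* overlaps one in its own direction, and since the sources used here do not state whether counting used strand, the reads of these 6 genes are less certain.

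The 3′ UTR intervals of the 3 D cyclins share a match to the seed of miR-15a, the 7 bases complementary to bases 2 to 8 of the microRNA. Mature microRNA sequences are from RefSeq (GRCm38.p6), shown with the seed in capitals, and the sites are read 5′ to 3′ on the transcript strand of GRCm39, shown with the match TGCTGCT in capitals. Among intervals of like length, those at least 0.8 times as long as the gene's interval and longer than it by no more than the inverse of this factor, the match occurs in 37.9% for *Ccnd1*, 58.2% for *Ccnd2* and 15.9% for *Ccnd3*.
miR-15a-5p: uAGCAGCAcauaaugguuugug
Ccnd1, chr7:144484132-144484138: tgccaccaTGCTGCTggcccggg
Ccnd2, chr6:127105505-127105511: tcacggtgTGCTGCTattttaga
Ccnd3, chr17:47910219-47910225: gctttgctTGCTGCTtagcttct

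The intervals of the inhibitors *Cdkn1b* and *Cdkn1c* each hold 1 match ATGTAGC to the seed of miR-221, and that of *Ccnd2* holds 2. The sites are shown because they join an inhibitor pair and a cyclin in 1 seed match. Of intervals of like length, 7.97% hold the match for *Cdkn1b*, 4.51% for *Cdkn1c* and 33.4% for *Ccnd2*.
miR-221-3p: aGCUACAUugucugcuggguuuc
Cdkn1b, chr6:134901394-134901400: agcattggATGTAGCattgcgca
Cdkn1c, chr7:143012663-143012669: tttcgttcATGTAGCaggaaccg
Ccnd2, chr6:127103510-127103516: gggggtacATGTAGCacccctgg
Ccnd2, chr6:127102291-127102297: ctgatgtgATGTAGCcgttaagt

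The match GCACTTT to the seed of miR-17 was found once each in *Ccnd1*, *Ccnd2* and *Rb1*, where 24.4%, 37.1% and 15.3% of intervals of like length hold it. *Ccnd2* also held 2 matches TGGTGCT to the seed of miR-29a, which 43.3% of intervals of like length hold, and no interval of the 10 genes held the match of let-7a (CTACCTC) or miR-34a (CACTGCC). The microRNAs themselves were not measured.
miR-17-5p: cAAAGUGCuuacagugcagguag
Ccnd1, chr7:144485413-144485419: atttcaaaGCACTTTtggtcagc
Ccnd2, chr6:127106303-127106309: ttagaaaaGCACTTTgaaaattt
Rb1, chr14:73433801-73433807: acccaagtGCACTTTttaatgtt

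AU-rich pentamers ATTTA were present in 9 of the 10 intervals, all but *Mxd4*, where between 42.5% (for *Cdkn2c*) and 99.6% (for *Ccnd2*) of intervals of like length hold it. Their number ran from 1 in *Max*, *Ccnd3* and *Cdkn2c* to 11 in *Rb1*, whose intervals of like length have a median of 3. *Cdkn1b* had 5, against a median of 2, and *Ccnd2* had 2 in its long interval, against a median of 9. The longer TATTTAT, which contains the pentamer, occurred 3 times in *Cdkn1b*, where 30.2% of intervals of like length hold at least 1, and once each in *Max*, *Ccnd1* and *Cdkn1c*, where 30.3%, 48.1% and 17.6% hold it. The pentamers of *Myc* and the TATTTAT sites of *Cdkn1b* are shown in capitals, the former as the element for which this transcript is known and the latter as the highest number among these genes. All motifs were sought on the transcript strand only, and a match describes letters, not a used site.
Myc, chr15:61861996-61862000: agatttgtATTTAattgtttt
Myc, chr15:61862133-61862137: ttttttttATTTAaagacatt
Cdkn1b, chr6:134901720-134901726: atggttgcTATTTATttctacat
Cdkn1b, chr6:134902240-134902246: tactaactTATTTATgttaaaaa
Cdkn1b, chr6:134902475-134902481: tccgtagtTATTTATtgagtgc

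*Ccnd2* was by far the highest of these transcripts, and *Myc* and *Cdkn1c* were the lowest. Levels are given as counts relative to all counted reads of the library, on the CPM scale and here called CPM of counted reads. In 3′ end libraries a transcript gives reads near its 3′ end, so that levels were not divided by length. *Ccnd2* had 1443, 1078 and 1136 CPM of counted reads in the labeled libraries, replicate 1 first, and 1379 and 882 in the unlabeled libraries, higher than 99.7% of all genes by the labeled mean. *Ccnd3* had 48.9, 101 and 150.2 in the labeled and 67.8 and 105 in the unlabeled libraries. *Ccnd1*, the D cyclin best known as a target of growth factor signaling, had 51.4, 47.7 and 69.2 in the labeled and 62.9 and 49.2 in the unlabeled libraries. Each library of *Ccnd2* was above each library of the other D cyclins, and those of *Ccnd1* and *Ccnd3* overlapped.

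Among the 3 inhibitors chosen here, *Cdkn1b* was the highest, with 164, 88.7 and 79.0 CPM of counted reads in the labeled libraries, replicate 1 first, and 223 and 159 in the unlabeled libraries. *Cdkn2c* had 15.2, 28.5 and 25.7 in the labeled and 32.0 and 33.1 in the unlabeled libraries. *Cdkn1c* had 5.71, 5.02 and 3.95 in the labeled and 8.14 and 14.1 in the unlabeled libraries, from 2 to 15 reads per library. The 3 inhibitors kept this order in every library. *Rb1*, which encodes the pocket protein that D cyclin kinases phosphorylate, had 15.9, 16.7 and 17.8 in the labeled and 19.0 and 25.1 in the unlabeled libraries.

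Of *Myc*, *Max* and *Mxd4*, the common partner *Max* had the highest mean level. It had 64.1, 115 and 128 CPM of counted reads in the labeled libraries, replicate 1 first, and 105 and 169 in the unlabeled libraries. The repressor *Mxd4* had 27.3, 38.5 and 27.7 in the labeled and 31.5 and 45.2 in the unlabeled libraries. *Myc* had 20.3, 9.21 and 11.9 in the labeled and 16.3 and 15.1 in the unlabeled libraries, from 6 to 32 reads per library. *Myc* was therefore the lowest of the 3 in every library. By the labeled libraries, the order of all 10 levels was *Ccnd2*, *Cdkn1b*, *Max*, *Ccnd3*, *Ccnd1*, *Mxd4*, *Cdkn2c*, *Rb1*, *Myc* and *Cdkn1c*. Of neighbours in this order, only *Ccnd2* and *Cdkn1b*, *Ccnd1* and *Mxd4*, and *Myc* and *Cdkn1c* had ranges that did not overlap.

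**Figure D1:**
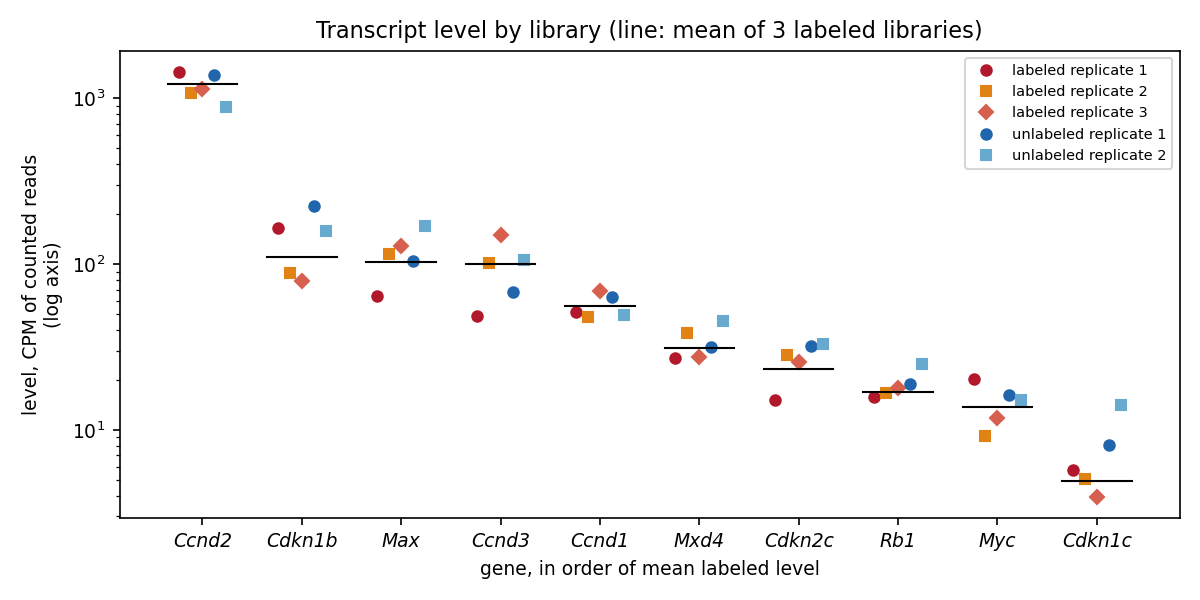
CPM of counted reads, on a log axis, of the 10 genes in each of the 5 libraries, with a line at the mean of the 3 labeled libraries. *Ccnd2* lies between 882 and 1443 in every library, and *Cdkn1c* between 3.95 and 14.1.

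In the deposited CPM, which divide by a larger number of reads, the means were lower, with 107 ± 76.8 CPM (SD, n = 3) for *Ccnd2*, 10.6 ± 9.85 CPM for *Cdkn1b*, 1.29 ± 1.22 CPM for *Myc* and 0.439 ± 0.309 CPM for *Cdkn1c*. This number was 7.58, 11.8 and 28.9 times the counted reads in labeled replicates 1, 2 and 3, which enters the SD of the deposited values. Without labeled replicate 1 the means were 65.4 CPM for *Ccnd2*, 5.13 for *Cdkn1b*, 0.595 for *Myc* and 0.281 for *Cdkn1c*.

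The T>C rate was raised after 12 h of labeling in 9 of the 10 genes, and the rates of most of these genes overlapped. The rate passed the beta-binomial test (unadjusted p below 0.05, two-sided, fitted on all intervals) in 9 of 10 genes, beside a background of 95.1% of 11179 genes and 94.6% of 19240 intervals. In the same 9 genes every labeled library was above both unlabeled libraries, as in 90.4% of all genes. The exception was *Cdkn1c*. The rate of each gene is thus read for its height, against a median of 0.0390 (quartiles 0.0349 and 0.0424) over 3156 deeply covered intervals, in which no library had fewer than 1000 covered T positions. The median of the 10 genes was 0.0342, and 4 of them lay above 0.0390. Only *Max* and *Ccnd2* had as many covered T positions in every library.

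*Ccnd2* had the highest mean rate and the narrowest counting error. Its rate was 0.0403, 0.0435 and 0.0443 in labeled replicates 1, 2 and 3, from 34826, 22294 and 10087 covered T positions, with 95% Wilson intervals from 0.0383 to 0.0425, from 0.0409 to 0.0462 and from 0.0405 to 0.0485. These intervals cover counting error only, here and below. The mean of 0.0427 ± 0.00209 (SD, n = 3) was higher than 78.1% of the deeply covered intervals. *Ccnd1* had 0.0340, 0.0471 and 0.0445, a mean of 0.0418 ± 0.00693, from 652 to 1530 covered T positions, and its range enclosed that of *Ccnd2*. *Ccnd3* had 0.0285, 0.0361 and 0.0312, a mean of 0.0319 ± 0.00381 that was higher than 17.6% of the deeply covered intervals. The highest value of *Ccnd3*, 0.0361, was below the lowest value of *Ccnd2*, 0.0403, whereas the ranges of *Ccnd3* and *Ccnd1* overlapped.

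In the Myc network, *Max* had rates of 0.0485, 0.0325 and 0.0425 in labeled replicates 1, 2 and 3, a mean of 0.0412 ± 0.00808 (SD, n = 3). The Wilson intervals of replicate 1, from 0.0405 to 0.0580, and of replicate 2, from 0.0271 to 0.0390, did not overlap, a pair picked after the values were seen, and these intervals treat the T positions of a read as independent. *Myc* had 0.0497, 0.0337 and 0.0248, a mean of 0.0361 ± 0.0126, from 906, 326 and 202 covered T positions. In labeled replicate 3 its Wilson interval ran from 0.0106 to 0.0566, which spans nearly the whole range of the other genes, and at this depth *Myc* could not be placed above or below the median. With the libraries pooled, 61 of 1434 covered T positions of *Myc* were converted, a rate of 0.0425 with a Wilson interval from 0.0333 to 0.0543. *Mxd4* had 0.0303, 0.0317 and 0.0258, a mean of 0.0293 ± 0.00307, higher than 13.5% of the deeply covered intervals. Each value of *Mxd4* was below each value of *Max*, but the closest pair differed only between 0.0317 and 0.0325.

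Of the inhibitors, *Cdkn2c* had rates of 0.0415, 0.0389 and 0.0431 in labeled replicates 1, 2 and 3, a mean of 0.0411 ± 0.00212 (SD, n = 3), from 325 to 849 covered T positions. *Cdkn1b* had 0.0344, 0.0399 and 0.0226, a mean of 0.0323 ± 0.00883, from 796 to 4681 covered T positions. Its Wilson intervals in replicate 2, from 0.0326 to 0.0488, and replicate 3, from 0.0144 to 0.0355, overlapped. *Rb1* had 0.0247, 0.0276 and 0.0440, a mean of 0.0321 ± 0.0104, from 250 to 567 covered T positions.

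*Cdkn1c* was too sparse for a rate. It had 0 conversions of 159 covered T positions in labeled replicate 1, which allows a rate of up to 0.0189, 2 of 111 in replicate 2 and 2 of 39 in replicate 3. In both unlabeled libraries it had 0 conversions, of 231 and 272 covered T positions. The beta-binomial test gave p = 0.0521, and without labeled replicate 1 it gave p = 0.00625. With any of the other 4 libraries left out, the beta-binomial p lay between 0.121 and 0.148.

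In order of the mean rate, the genes were *Ccnd2*, *Ccnd1*, *Max*, *Cdkn2c*, *Myc*, *Cdkn1b*, *Rb1*, *Ccnd3*, *Mxd4* and *Cdkn1c*, and every neighbouring pair overlapped. The place of *Cdkn1c* rests on single libraries, with a mean of 0.03465 without labeled replicate 1 and 0.00901 without labeled replicate 3. Of 45 pairs of genes, 7 had 3 labeled values of the one above all 3 of the other. These 7 pairs are a description of few libraries, without a test. *Ccnd2* lay above *Ccnd3*, *Mxd4* and *Cdkn1b*, *Cdkn2c* above *Ccnd3* and *Mxd4*, and *Max* and *Ccnd1* above *Mxd4*. The share of reads with at least 1 conversion depends also on how many T positions a read covers. It was 63.2% for *Max* and 59.2% for *Myc*, with 24.4 and 29.3 covered T positions per read, against 35.8% for *Ccnd3* and 36.9% for *Mxd4*, with 14.7 and 16.4.

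**Figure D2:**
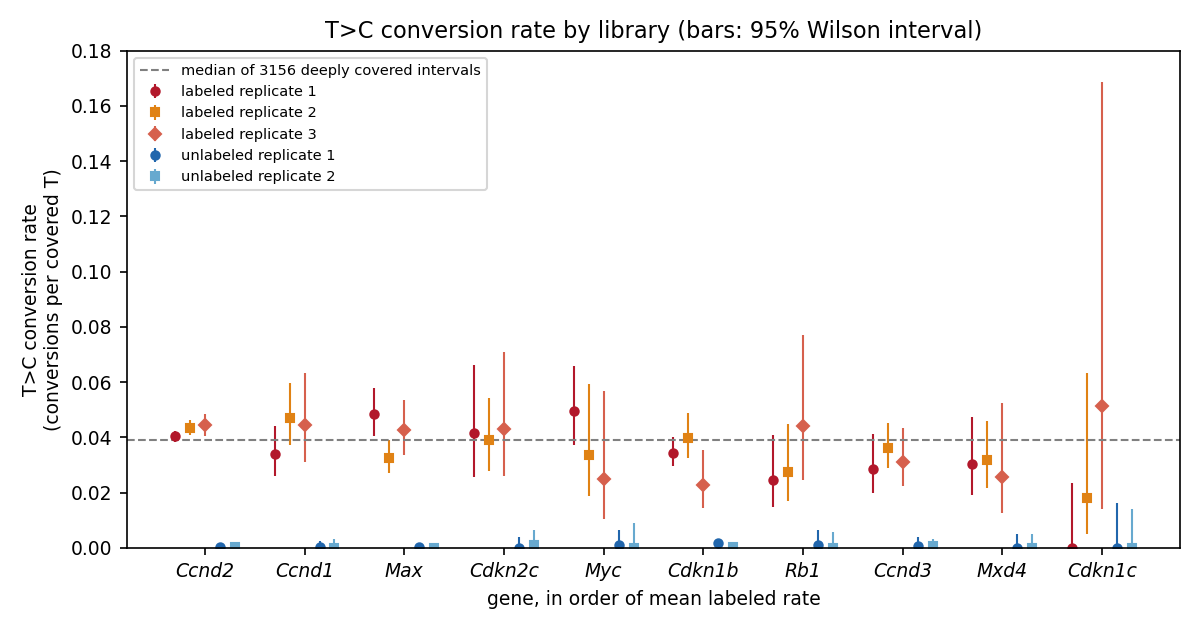
T>C conversion rate of the 10 genes in each library, with bars for the 95% Wilson interval and a dashed line at 0.0390, the median of the deeply covered intervals in the labeled libraries. *Ccnd2* has the narrowest bars, *Cdkn1c* the widest, and the unlabeled libraries lie near 0.

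Without S4U the rates were low in the 9 genes with more coverage. The highest was that of *Cdkn1b* in unlabeled replicate 1, with 15 conversions of 7858 covered T positions, a rate of 0.00191, against 1 of 3389 in unlabeled replicate 2. *Ccnd2* had 18 of 42264 and 4 of 16133. *Mxd4* and *Cdkn1c* had 0 conversions in both unlabeled libraries, and the covered T positions of *Mxd4* allow a rate of up to 0.00380 and 0.00398. Those of *Cdkn1c* allow up to 0.0130 and 0.0110, so that a low rate without S4U was not detectable for *Cdkn1c* at this depth. Subtracting the unlabeled mean moved no rate by more than its SD over the labeled libraries.

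*Ccnd2* reads could be split between the distal bases of its 3′ UTR and the rest, within which their place is not known. The tables hold a second interval that ends 546 bases short of the long one, and reads counted on the long interval alone lie in the distal bases from 127102125 to 127102670. The distal part ends with a poly(A) signal AATAAA, shown in capitals, as 62.8% of intervals do within 60 bases of their end. No AATAAA or ATTAAA was found within 60 bases of the end of the shorter interval.
Ccnd2, chr6:127102142-127102147: atttggacAATAAActcacctt

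The distal part held 1166 of 2275, 419 of 1288 and 203 of 575 reads of *Ccnd2* in labeled replicates 1, 2 and 3, and 1369 of 2542 and 303 of 879 in unlabeled replicates 1 and 2. As a share this was 51.3%, 32.5% and 35.3% in the labeled and 53.9% and 34.5% in the unlabeled libraries. The share was therefore higher in both libraries numbered 1, with Wilson intervals from 49.2% to 53.3% and from 51.9% to 55.8%, than in the other 3, whose intervals reached 39.3% at most, and labeled and unlabeled libraries overlapped. Of 15 genes with nested intervals of this kind and enough reads, the share was above the other 3 libraries in both libraries numbered 1 for 40% and below for 26.7%. The difference of 18.5 percentage points for *Ccnd2* was larger than that of 93.3% of them. The level of the distal part alone, 304 to 743 CPM of counted reads, still exceeded every library of the other 9 genes.

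New RNA was read in both parts of *Ccnd2*. The T>C rate was 0.0411, 0.0460 and 0.0448 in the distal part and 0.0391, 0.0419 and 0.0440 in the shorter interval in labeled replicates 1, 2 and 3. The distal rate was the higher in each of the 3 libraries, with means of 0.0440 ± 0.00256 and 0.0417 ± 0.00246 (SD, n = 3). Both parts were read in the same libraries, so that these SD do not measure the difference, which was not tested.

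**Figure D3:**
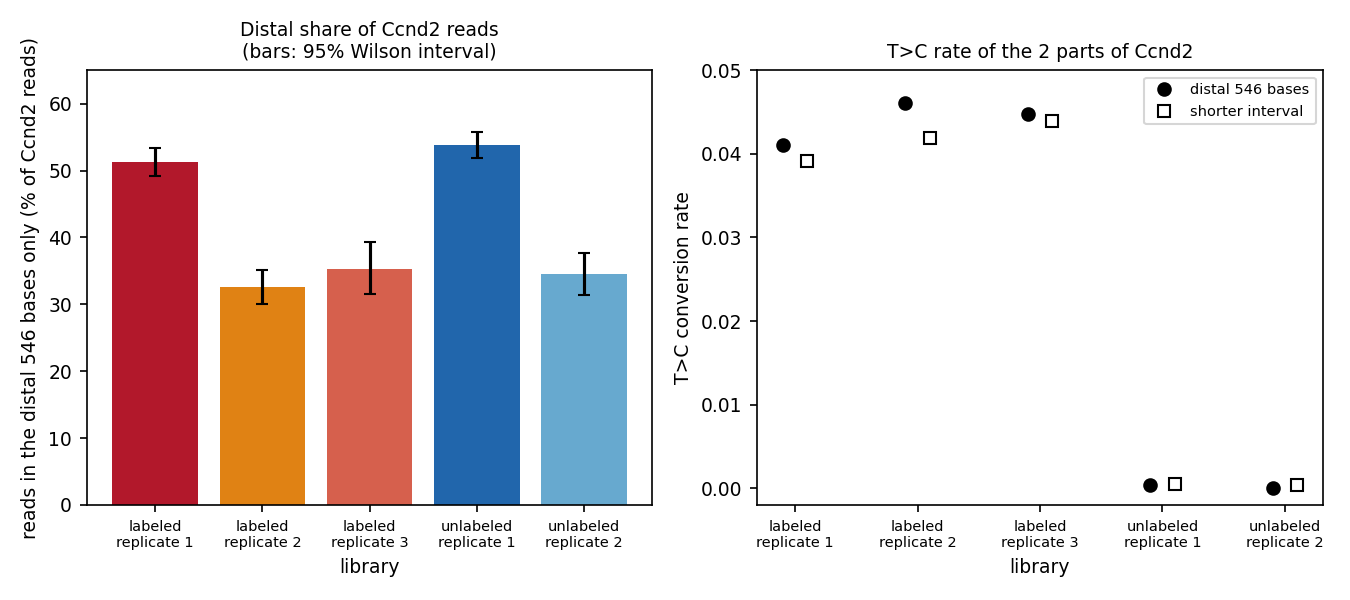
Left, the share of *Ccnd2* reads that lie in the distal 546 bases only, by library, with 95% Wilson intervals. It is 51.3% and 53.9% in the libraries numbered 1 and 32.5% to 35.3% in the others. Right, the T>C rate of the distal part (filled) and of the shorter interval (open), which lie between 0.0391 and 0.0460 in the labeled libraries.

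The make-up of the D cyclin reads overlapped between labeled and unlabeled libraries. *Ccnd2* made up 93.5%, 87.9% and 83.8% of the reads of the 3 D cyclins in the labeled libraries, replicate 1 first, and 91.3% and 85.1% in the unlabeled libraries. *Ccnd3* made up 3.16%, 8.25% and 11.1% in the labeled and 4.49% and 10.2% in the unlabeled libraries, lowest in the 2 libraries numbered 1. *Ccnd1* stayed between 3.33% and 5.10%. Of the 9 genes with enough reads to be tested, *Myc*, *Ccnd2* and *Cdkn1b* were above, and *Max* and *Ccnd3* below, the other 3 libraries in both libraries numbered 1, shares near those given above for all genes.

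**Figure D4:**
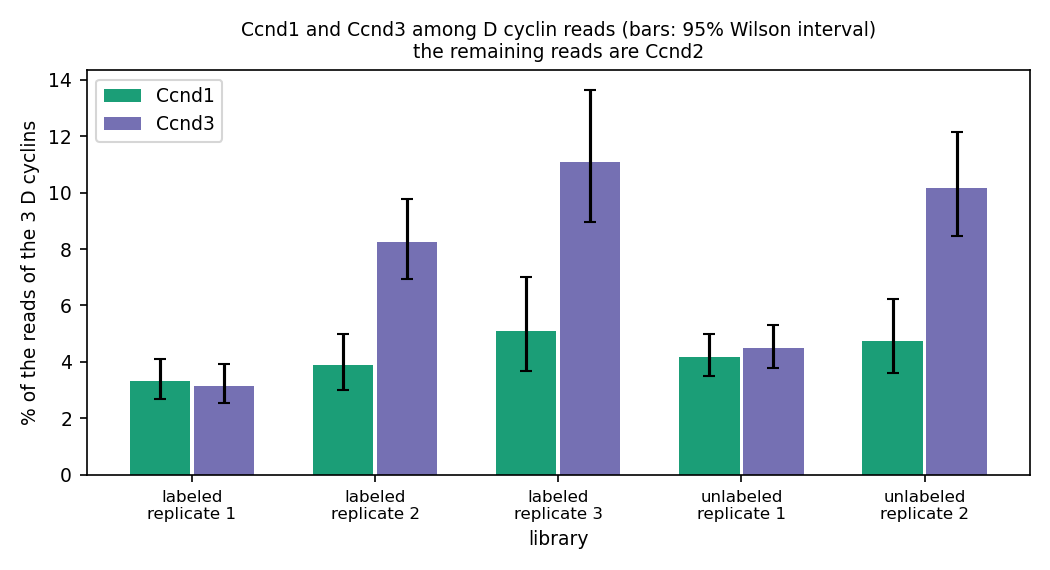
Share of *Ccnd1* and *Ccnd3* among the reads of the 3 D cyclins in each library, with 95% Wilson intervals. *Ccnd3* lies at 3.16% and 4.49% in the libraries numbered 1 and between 8.25% and 11.1% in the others, while *Ccnd1* stays between 3.33% and 5.10%.

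Whether 12 h with S4U changed the levels of these genes was asked by comparing reads between labeled and unlabeled libraries. Without a replicate block, no gene of the 9 tested passed edgeR's quasi-likelihood test after Benjamini-Hochberg adjustment, and *Cdkn1c* had too few reads to be tested. Over all 9807 genes 0% were called higher and 0% lower, and an edgeR p below 0.05 before adjustment was found for 2.84% of the genes with a rise and 3.12% with a fall. None of the 9 genes was among these. DESeq2 gave an adjusted p for 7 of the 9 genes, leaving out *Myc* and *Rb1*, and called 0 of these, beside 0.133% higher and 0.0714% lower of all genes. The few DESeq2 calls over all genes moved with its filtering and are given as approximate.

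The lowest fold change was that of *Cdkn1b*, whose unlabeled libraries at 223 and 159 CPM of counted reads stood against 164, 88.7 and 79.0, so that the groups overlapped. Its log2 fold change, labeled against unlabeled, was −0.70 (standard error 0.35, edgeR adjusted p = 0.908), lower than all but 6.55% of the genes. *Cdkn2c* had a log2 fold change of −0.44 (standard error 0.39), *Max* of −0.35 (0.40), *Rb1* of −0.32 (0.37) and *Mxd4* of −0.21 (0.35). *Myc* had −0.08 (standard error 0.46), *Ccnd1* 0.06 (0.31), *Ccnd2* 0.19 (0.28) and *Ccnd3* 0.27 (0.51), and the estimate of *Ccnd1* was −0.02 where library sizes alone were used. The adjusted p of each of these 8 genes was 0.9997. Of the 9 estimates 3 were above and 6 below 0, with a median of −0.21, beside a median of 0.02 over all genes. Only *Cdkn1b*, *Cdkn2c* and *Rb1* kept their sign whichever library was left out, so that no direction without a block is given for the other 6. With an unlabeled library left out, only 1 remains, so that labeling cannot be told apart from the split by number given above. Between libraries of the same number, which the labels do not tie to a preparation, *Cdkn1b* was at 164 with and 223 without S4U for number 1 and at 88.7 and 159 for number 2. *Max* was at 64.1 and 105 for number 1 and at 115 and 169 for number 2. Both were thus lower with S4U within each number, while their groups overlapped. With the replicate number as a block, which left 1 residual degree of freedom, edgeR called both lower. The edgeR adjusted p was then 0.0132 for *Cdkn1b* and 0.0166 for *Max*. Labeled replicate 3, whose number has no unlabeled library, does not enter these fold changes, which rest on numbers 1 and 2.

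The groups did not overlap in 3 genes, all lower in the labeled libraries. *Cdkn2c* was at 28.5 or below with S4U and at 32.0 or above without, *Rb1* at 17.8 or below and 19.0 or above, and *Cdkn1c* at 5.71 or below and 8.14 or above. Such a separation was found in 13.1% of all tested genes in this direction and in 8.2% in the other, and *Cdkn1c* is not among those tested. Less RNA per cell and fewer cells with the transcript cannot be told apart in these cultures. The summed proliferation markers were also lower in the labeled libraries, at 251, 384 and 393 CPM of counted reads against 455 and 672. Of the 7 fibroblast markers 6 had a log2 fold change above 0 and 1 below, with a median of 0.28. All 5 endothelial markers had a log2 fold change below 0, with a median of −0.31, and of 4 macrophage markers tested 3 were above 0 and 1 below. The study's CF isolation included magnetic depletion of endothelial and immune cells. The part of cell division or of other cells in these values was not tested.

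**Figure D5:**
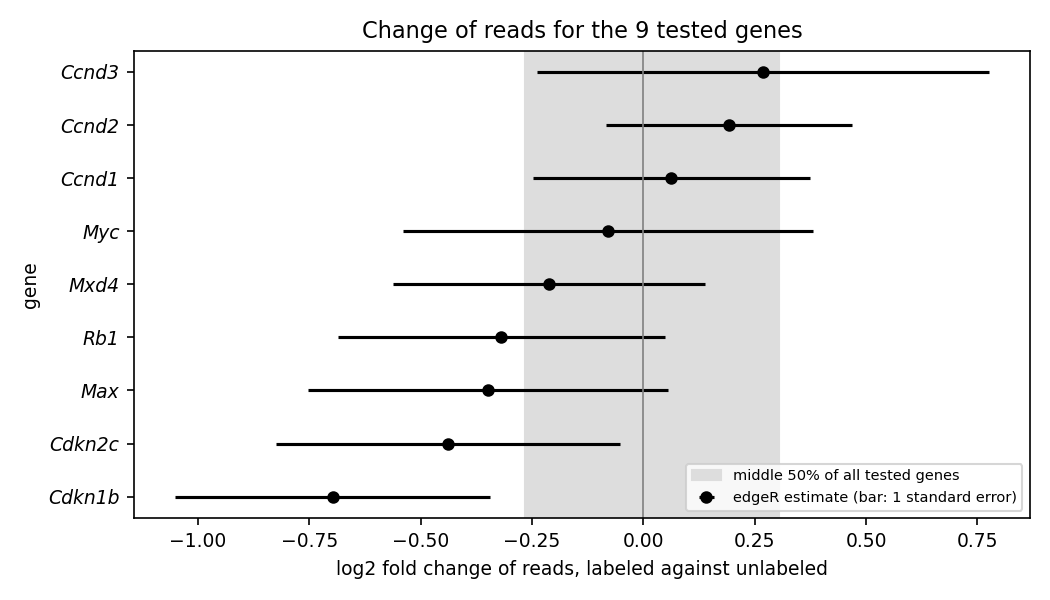
log2 fold change of reads, labeled against unlabeled, for the 9 tested genes with bars of 1 standard error, and the middle 50% of all 9807 genes in grey, from −0.27 to 0.30. *Cdkn1b* lies lowest at −0.70, and no gene passed the adjusted test without a replicate block.

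The wider pathway was followed in 7 lists with 67 entries. The T>C rate could be tested in 63 of these genes and was raised in 62, beside 95.1% of all genes. Reads were tested in 59, of which 0 passed the adjusted edgeR test without a replicate block. Before adjustment 3 had an edgeR p below 0.05, 1 higher and 2 lower, beside 2.84% higher and 3.12% lower of all genes. With the replicate number as a block edgeR called 12, 4 higher and 8 lower, beside 5.38% higher and 6.29% lower of all genes. *Cdkn1a*, *Ccna2* and *Top2a* were among these 12. Of the CDKs and later cyclins, 7 of 7 had a raised T>C rate. *Cdk6*, a partner of the D cyclins, had a rate of 0.0429 ± 0.00134 (SD, n = 3) and its counterpart *Cdk4* one of 0.0304 ± 0.00183, and each of the 3 libraries was higher for *Cdk6*. *Ccna2*, the cyclin of S phase, had 25.4, 22.6 and 13.8 CPM of counted reads in the labeled and 59.1 and 61.2 in the unlabeled libraries, with a log2 fold change of −1.43 (standard error 0.33, edgeR adjusted p = 0.543, unadjusted p = 0.00324). *Cdk2* had the highest log2 fold change of this list at 0.26 (standard error 0.50).

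Of the other CDK inhibitors, *Cdkn1a*, which encodes p21 and is a target of p53, had 426, 1363 and 1306 CPM of counted reads in the labeled and 80.9 and 388 in the unlabeled libraries. The groups did not overlap, and the log2 fold change was 2.20 (standard error 0.80, edgeR adjusted p = 0.767, unadjusted p = 0.0285). Its T>C rate was 0.0350 ± 0.00532 (SD, n = 3). *Cdkn2a* was lowest at −1.02 (standard error 0.69), with 82.5 CPM of counted reads in unlabeled replicate 1 and 9.88 to 41.2 in the others. Of the 4 inhibitors in this list, *Cdkn1a* and *Cdkn2b* were higher in each labeled library than in both unlabeled ones, beside 8.2% of all tested genes.

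Of the pocket proteins and E2F factors, 9 of 12 were tested for reads, with 2 higher and 7 lower and a median log2 fold change of −0.08, from −0.96 (standard error 0.54) for *Rbl2* to 0.37 (0.36) for *E2f3*. Of the rest of the Myc network, 5 were higher and 2 lower, from −0.56 (standard error 0.29) for *Mnt* to 0.40 (0.38) for *Mxd1*. The large Max-binding protein *Mga* was the only one of them with deep coverage, at a T>C rate of 0.0394 ± 0.00160 (SD, n = 3). Of the genes for ubiquitin ligase parts and related factors that act on Myc, cyclins and p27, 3 were higher and 3 lower, from −0.88 (0.69) for *Usp28* to 0.53 (0.35) for *Fbxo31*. *Cks1b*, a cofactor for the degradation of p27, had a T>C rate of 0.0467 ± 0.00249.

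Of the Myc target genes, 11 of 12 tested had a fold change above 0 and 1, *Npm1*, below, with a median log2 fold change of 0.29, and 0 passed at an unadjusted p below 0.05 in edgeR. The ends of this range were 0.83 (standard error 0.64) for *Srm* and −0.32 (0.23) for *Npm1*. The T>C rate was 0.0429 ± 0.00140 (SD, n = 3) for *Npm1* and 0.0396 ± 0.00144 for *Ncl*, both nucleolar proteins. Of the proliferation markers, 14 of 14 had a fold change below 0, with a median of −0.60. In 6 of the 14 every labeled library was below both unlabeled ones, beside 13.1% of all tested genes. The lowest was *Top2a*, a topoisomerase of dividing cells, at 24.7, 64.4 and 61.3 CPM of counted reads in the labeled and 86.8 and 138 in the unlabeled libraries (log2 fold change −1.11, standard error 0.47, edgeR adjusted p = 0.846). The marker with an unadjusted p below 0.05 was *Ccnb2*, a mitotic cyclin, at −1.03 (standard error 0.39, edgeR adjusted p = 0.778), which is named after its value was seen.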

How the data were processed

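SLAMseq libraries of CF were analysed, 3 labeled and 2 unlabeled, grouped by the submitters' titles. Reads were mapped by the authors with SLAM-DUNK (0.4.3 in the submitters' processing notes, build mm39), and UMI-tools served to take out molecular identifiers and then duplicates. They deposited raw counts of reads, of reads with a conversion, of covered T positions and of conversions per 3′ UTR interval. The deposited conversion rate is a fraction, and the deposited CPM divides reads by 1 number per library. The deposited T content is another property of the interval, not a measurement.

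Repeated rows were used once, which left 40428 intervals. The T content of 40380 of 40380 intervals matched GRCm39, and annotation was GENCODE's. The genes and gene lists were chosen with earlier results of these data known. The named genes were the 10 genes, the extremes of each list in read change and, where no library had fewer than 1000 covered T positions, in T>C rate, and the 3 genes nearest to *Myc* in their pattern over the libraries, whatever their level.

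For T>C rates, a likelihood-ratio test of the beta-binomial model was used, with 1 overdispersion per interval. For reads on 1 interval per gene, the test was edgeR's quasi-likelihood test (TMM, filterByExpr, Benjamini-Hochberg adjustment). A count of 0 was given an upper limit of 3 conversions. Alternatives were thresholds on covered T positions, limma on the log odds (pseudocount 0.5), DESeq2, other size factors and filters, summed intervals, the replicate number as a block and each library left out. The tests were checked on simulated data, but the outcome is not given here and no result rests on it. Library sizes alone, as a further alternative, were chosen after seeing the data. Tests ran in Python 3.11.15 (numba 0.67.0, scipy 1.17.1, numpy 2.4.6) and R 4.3.3 (DESeq2 1.42.0, limma 3.58.1, edgeR 4.0.16), tables in pandas 2.3.3 and plots in matplotlib 3.10.9.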

Additional observations from a re-analysis of the deposited data

How the results depend on the processing

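The count of genes of interest with a raised T>C rate was 9. It became 2 where no library might have fewer than 1000 covered T positions, since only 2 of the genes were then tested, lay between 9 and 10 when each library was left out, and was 10 with limma on the log odds, both without and with the replicate block. The count over all intervals, 18200, became 3154 at that coverage and 10634 with 1 interval per gene, since fewer intervals were tested, and lay between 17056 and 18632 with a library left out.

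None of the 9 genes was called for reads without the block. For all genes, DESeq2 called 20, and 17 without its independent filtering, an alternative chosen after seeing the data. The cause was not tested. The labels use the numbers 1 and 2 in both groups and do not tie a number to a preparation. Number 3 has only a labeled library, so that fold changes under the block rest on the libraries numbered 1 and 2. With so few libraries, small p-values of this fit do not measure the spread between preparations. With the replicate block, which leaves 1 residual degree of freedom, edgeR called 1145 genes (5.38% of 9807 higher and 6.29% lower) and 2 of the 9, *Max* at −0.57 (adjusted p = 0.0166) and *Cdkn1b* at −0.55 (adjusted p = 0.0132), both lower. Of the 59 tested genes of the pathway lists, 0 were called without the block and 12 with it, 4 higher and 8 lower, among them *Cdkn1a* at 2.12 (adjusted p = 8.82e-35), *Top2a* at −1.36 (adjusted p = 6.63e-09), *Ccna2* at −1.25 (adjusted p = 2.24e-05), *Cks1b* at −0.80 (adjusted p = 0.000508) and *Plk1* at −1.30 (adjusted p = 0.00144). The correlation of deviations from the group means was 0.784 for the pair numbered 1 and 0.638 for the pair numbered 2, but labeled replicate 3 also correlated with unlabeled replicate 2 at 0.482. With 2 unlabeled libraries their deviations mirror each other, so that these values are not separate evidence of pairing. The log2 fold changes turned sign under the block for *Myc* (0.026), *Ccnd1* (−0.13) and *Ccnd3* (−0.21), and with library sizes alone for *Ccnd1* (−0.024). With a library left out they ran from −0.52 to 0.17 for *Myc*, turning without labeled replicate 2, from −0.70 to 0.086 for *Max*, −0.50 to 0.11 for *Mxd4* and −0.061 to 0.49 for *Ccnd2*, each turning without unlabeled replicate 2, from −0.11 to 0.20 for *Ccnd1*, turning without labeled replicate 3 or unlabeled replicate 2, and from −0.13 to 0.67 for *Ccnd3*, turning without labeled replicate 3 or unlabeled replicate 1. *Cdkn1b*, *Cdkn2c* and *Rb1* stayed below 0 in every fit. With a library left out they ran from −1.09 to −0.48 for *Cdkn1b*, −0.64 to −0.16 for *Cdkn2c* and −0.56 to −0.071 for *Rb1*.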

Other observations

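The genes closest to *Myc* in their pattern over the 5 libraries, not in their level, by the mean absolute difference of log2 levels centred on each gene's mean, were *Larp1* at 0.06, *Tsc22d4* at 0.08 and *Arid2* at 0.08, of 4619 genes with at least 20 reads in every library. *Larp1*, which encodes an RNA-binding protein, had 200.5, 108 and 130.4 CPM of counted reads in the labeled libraries, replicate 1 first, and 186 and 159 in the unlabeled libraries. *Myc* itself had 6 to 32 reads per library, fewer than the 20 asked of the others in labeled replicates 2 and 3 and unlabeled replicate 2. Its own pattern is thus uncertain, and the nearness of these genes, picked from many, was not tested. The mean T>C rate was 0.0449 for *Larp1*, 0.0357 for *Tsc22d4* and 0.0335 for *Arid2*.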
